A study of Mus musculus with 9 samples.

Results

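Histones package DNA into nucleosomes, and their genes fall into classes whose mRNAs are made in different ways. The replication-dependent core genes (H2A, H2B, H3 and H4) sit in clusters, lack introns and are transcribed in S phase. Their mRNAs usually end in a conserved stem-loop in place of a poly(A) tail, although polyadenylated forms exist. Replacement core histones such as H3.3 and H2A.Z are made throughout the cell cycle from polyadenylated mRNAs, mostly of genes with introns. Linker histones (H1) bind the DNA between nucleosomes, and they include replication-dependent members (Hist1h1a to Hist1h1e) and H1f0, a replacement H1 known for accumulating in cells that stop dividing. Smart-seq2 primes reverse transcription on poly(A), so a read on a replication-dependent gene is usually taken to stem from a polyadenylated transcript.

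The members were the protein-coding genes whose mouse symbol begins with Hist1h to Hist4h, H1f, H2af or H3f. They numbered 83 of the 53715 genes of the count table, after 8 pseudogene, antisense or otherwise not protein-coding entries among 91 matches were left out. Of the 83, 61 were replication-dependent core genes, 12 replacement core genes and 10 linker genes. The low-count filter passed 62 of them, namely 47, 8 and 7 of these classes. The other 21 were not tested: 12 had 0 counts in all 5 libraries, and 9 had at most 25 counts in total.

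The libraries came from thymi of C57BL/6 mice aged 6 to 8 weeks, from thymocytes sorted as TCRβ+ CD69+ CD24+ CD4+ CD8+, cells with both coreceptors that carry marks of recent receptor signalling. The 3 WT libraries were compared with 2 SRSF1KO libraries of genotype Srsf1 fl/fl Lck cre/+, in which Cre is driven in T-lineage cells by the Lck promoter and deletes the floxed gene of the splicing factor SRSF1. The labels do not say whether WT mice carried Cre or floxed alleles, or whether libraries of a group came from separate mice. Ddx3y had 5699 and 84 counts in SRSF1KO 1 and SRSF1KO 2, and Xist had 282 and 21400. These male and female patterns mean that the 2 SRSF1KO libraries had different donors. WT 2 (Ddx3y 5803 counts) likewise differed from WT 1 and WT 3 (23 and 141). WT 1 and WT 3 may share a donor, so part of the spread behind the p-values may be technical. The comparison asks how histone transcripts of thymocytes sorted at this stage differ between SRSF1KO and WT.

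Library totals ran from 36026006 to 38985285 counts, so a floor of 3 counts corresponded to 0.0779 to 0.0839 counts scaled to library size (CPM). Srsf1 stood at 96.9, 123 and 103 CPM in WT and at 42.6 and 30.9 CPM in SRSF1KO (log2 fold change -1.55 ± 0.19 SE, edgeR adjusted p = 0.0483). Levels are CPM after scaling with edgeR's trimmed mean of M-values (TMM), errors of means are SD with n = 3 WT and n = 2 SRSF1KO libraries, and errors of log2 fold changes (SRSF1KO minus WT) are SE. Summed CPM of 5 markers of proliferating cells was 503 to 685 in WT and 749 to 825 in SRSF1KO, and that of 5 erythroid markers was 2.54 to 12.7 in WT and 99.1 and 22.9 in SRSF1KO. All 5 proliferation markers and all 5 erythroid markers had a positive log2 fold change, with 2 and 4 at unadjusted p under 0.05. EdgeR and limma-voom called 0 of either list, and DESeq2 called 2 of each higher. NK and γδ T-cell markers summed to 39.4 to 61.0 CPM in WT and 81.0 and 68.4 CPM in SRSF1KO. Sums for double-positive and double-negative thymocyte, B-cell, macrophage, dendritic-cell, neutrophil and thymic epithelial markers overlapped between groups. Neutrophil markers reached 17.0 CPM in SRSF1KO 2 (1.32 to 5.06 CPM in WT). Thymic epithelial markers reached 25.4 CPM in SRSF1KO 1 (14.1 to 14.5 CPM in WT). The part of any of these cell types in the histone values was not tested. By Xist and Ddx3y counts, WT 2 and SRSF1KO 1 had a male pattern and the other 3 libraries a female one, so the values of the called genes are also given within each pattern.

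Two-sided edgeR quasi-likelihood tests called 2 histone genes higher in SRSF1KO, the linker gene H1f0 and the H2B gene Hist2h2be, at a Benjamini-Hochberg adjusted p under 0.05 over the 17351 genes tested. That rule called 0.0519% of all genes higher. It called 0 histone genes lower, where 0.213% of all genes were lower. At unadjusted p under 0.05, 13 members were higher and 1 lower, against 5.9% and 8.45% of all genes. DESeq2 called 9 of the 61 members it gave an adjusted p higher and 0 lower, against 2.34% and 3.87% of all genes, and limma-voom called 4 higher and 0 lower, against 0.133% and 0.409%. In 24 of the 62 tested members both SRSF1KO libraries stood above all 3 WT libraries, against 15.2% of all genes, and in 4 both stood below, against 17.8%. The median log2 fold change was 0.38 over the tested members, with 43 positive and 19 negative, and -0.01 over all genes tested.

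The linker genes had the largest median difference of the 3 classes, 1.01 on the log2 scale over 7 tested members, of which 6 were positive and 1 negative. Among members averaging 5 CPM or more it was also 1.01 (5 genes), close to 0.93 for 13 replication-dependent core genes. Below that level, 34 core genes had a median of 0.10 and 2 linker genes one of 0.67. Fits without 1 library gave linker medians of 0.71 to 0.99, all under 1.01, and core medians of 0.33 to 0.43. Summed linker level was 81.2, 90.1 and 85.6 CPM in WT and 202 and 187 CPM in SRSF1KO, 85.6 ± 4.45 against 194 ± 10.7. The groups did not overlap and the ratio of the means was 2.27. Because RNA was pooled over cells, more cells of a type and more RNA per cell cannot be told apart in these sums.

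H1f0, on chromosome 15 (GRCm38, 79028212 to 79030504), had 34.5, 28.2 and 31.8 CPM in WT and 92.7 and 88.6 CPM in SRSF1KO. Every SRSF1KO value was above every WT value. The gene rose 2.88-fold (log2 fold change 1.52 ± 0.14, edgeR adjusted p = 0.0293, DESeq2 adjusted p = 2.1e-16). The difference on the log2(CPM + 0.5) scale was 1.41 within the female pattern and 1.70 within the male pattern. Leaving out each library in turn gave log2 fold changes between 1.45 and 1.60, but the edgeR adjusted p ran from 0.0284 to 0.220, and H1f0 was not called without any 1 of the WT libraries or without SRSF1KO 1.

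Hist1h1c, which encodes the widely used linker subtype H1.2, stood at 32.4, 38.7 and 33.5 CPM in WT and at 66.5 and 73.6 CPM in SRSF1KO. These groups did not overlap either, and the means were 34.9 ± 3.38 and 70.0 ± 5.01 CPM. Its log2 fold change was 1.01 ± 0.15, which missed the edgeR threshold (adjusted p = 0.0601) and passed with DESeq2 (adjusted p = 1.0e-06) and limma-voom (adjusted p = 0.0426).

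The other replication-dependent linker genes were at lower levels. Hist1h1e (H1.4) had 5.02, 7.72 and 7.06 CPM in WT and 20.6 and 10.8 CPM in SRSF1KO (log2 fold change 1.25 ± 0.37, edgeR adjusted p = 0.200, DESeq2 adjusted p = 0.0335), and without SRSF1KO 1 its log2 fold change was 0.71. Hist1h1b (H1.5) had 4.04, 5.72 and 6.21 CPM against 11.2 and 7.72 CPM (0.83 ± 0.35, edgeR adjusted p = 0.345). In both genes the groups did not overlap, with SRSF1KO 1 the higher SRSF1KO library. Hist1h1d (H1.3) overlapped between groups, at 3.57 to 5.66 CPM in WT and 7.66 and 4.06 CPM in SRSF1KO, as did Hist1h1a (H1.1), at 1.56 to 3.10 CPM and 2.80 and 0.755 CPM. H1foo, the oocyte linker histone, had 0, 20 and 0 counts in WT and 7 and 37 in SRSF1KO, a log2 fold change of 1.73 ± 2.05. H1fx had at most 7 counts in a library, and the testis genes Hist1h1t and H1fnt had 7 and 1 counts in total.

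H1f0 held 42.4%, 31.3% and 37.2% of the linker counts in WT and 46.0% and 47.4% in SRSF1KO. H1f0 and Hist1h1c together held 74.3% to 82.3% in WT and 78.9% and 86.9% in SRSF1KO, so these 2 genes supplied most linker reads in every library.

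Promoter windows of RefSeq (GRCm38.p6, 250 bases upstream of the annotated start, 75 members matched) are shown for 3 linker genes to compare the replacement H1 with its replication-dependent relatives. They lie at chr15:79027962-79028211 (plus strand, H1f0), chr13:23738557-23738806 (plus strand, Hist1h1c) and chr13:23622559-23622808 (minus strand, Hist1h1e). Capitals mark matches, searched on both strands, to 4 motifs: the octamer ATTTGCAT, the H1 box AAACACA, the CCAAT box CCAAT (reverse ATTGG) and the TATA box TATAAA.
H1f0: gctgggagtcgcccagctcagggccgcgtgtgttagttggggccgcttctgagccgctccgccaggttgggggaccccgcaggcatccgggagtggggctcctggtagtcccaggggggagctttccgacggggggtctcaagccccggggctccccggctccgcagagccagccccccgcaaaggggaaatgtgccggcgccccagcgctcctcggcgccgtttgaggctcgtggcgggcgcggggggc
Hist1h1c: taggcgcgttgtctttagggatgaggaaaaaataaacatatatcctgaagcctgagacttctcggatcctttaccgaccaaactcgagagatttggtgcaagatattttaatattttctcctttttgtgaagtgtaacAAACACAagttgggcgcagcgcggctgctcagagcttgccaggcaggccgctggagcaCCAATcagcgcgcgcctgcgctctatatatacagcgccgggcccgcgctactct
Hist1h1e: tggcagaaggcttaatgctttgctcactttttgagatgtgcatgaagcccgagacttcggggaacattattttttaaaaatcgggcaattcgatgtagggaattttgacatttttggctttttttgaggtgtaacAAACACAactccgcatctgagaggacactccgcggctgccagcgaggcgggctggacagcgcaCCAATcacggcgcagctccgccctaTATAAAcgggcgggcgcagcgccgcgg
The H1 box began 112 bases before the annotated start of Hist1h1c and 115 before that of Hist1h1e. It was present in 5 of 10 linker windows and in 6.25% of 32851 windows of all genes. The H1f0 window held no exact match to any of the 4 motifs. Variant forms of the motifs and sites outside the 250 bases were not searched. A match describes letters and not a bound site, and matches of different motifs overlapped in 0 member windows.

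**Figure D1:**
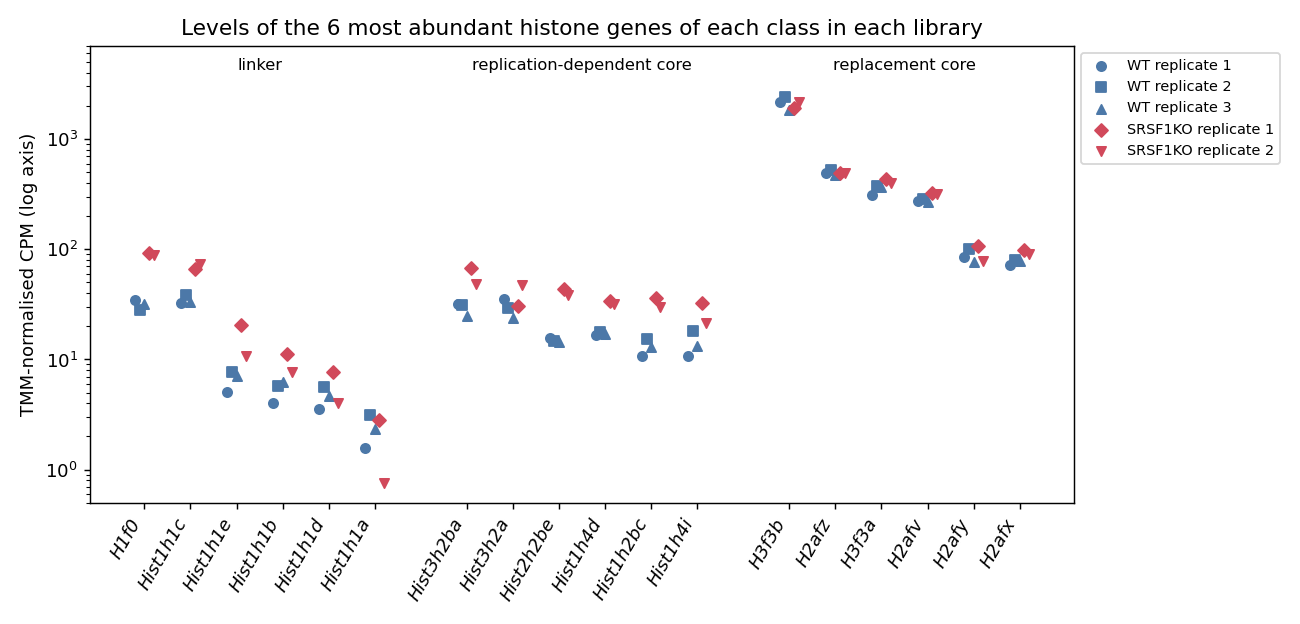
TMM-normalised CPM on a log axis of the 6 members with the highest mean level in each histone class, 1 symbol per library (blue WT, red SRSF1KO). H1f0 and Hist1h1c lie apart between groups (WT at most 38.7 CPM, SRSF1KO at least 66.5 CPM), whereas the replacement genes H3f3b and H2afz overlap.

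Replication-dependent core histones supply nucleosomes for newly copied DNA. The 61 genes were placed in this class by symbol alone, and not each was checked for this role. The median log2 fold change was 0.44 over 47 tested members, of which 32 were positive and 15 negative. The summed level of the 61 genes was 211, 229 and 212 CPM in WT and 377 and 347 CPM in SRSF1KO. The means were 217 ± 10.2 and 362 ± 21.6 CPM, a ratio of 1.67 with no overlap. All 13 members with a mean over the 5 libraries of at least 5 CPM had a positive log2 fold change (median 0.93). In 10 of them the SRSF1KO libraries stood above all WT libraries. Among all genes at that level, 16.4% stood so. Hist1h2be, among these 10, passed the cut only through SRSF1KO, with means of 3.26 CPM in WT and 12.6 CPM in SRSF1KO. The 34 members below 5 CPM had a median of 0.10, with 6 of them above and 3 below, against 13.5% and 13.8% of all genes under 5 CPM.

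Hist2h2be, an H2B gene on chromosome 3 (96221072 to 96223738), had 15.5, 14.7 and 14.5 CPM in WT and 43.5 and 38.7 CPM in SRSF1KO. Both SRSF1KO libraries lay above all WT libraries, which were close to each other. The gene rose 2.75-fold (log2 fold change 1.46 ± 0.18, edgeR adjusted p = 0.0483, DESeq2 adjusted p = 6.7e-10). Within the female and male patterns the difference was 1.34 and 1.53 on the log2(CPM + 0.5) scale. Leaving out each library kept the log2 fold change between 1.37 and 1.56, with an edgeR adjusted p of 0.0499 to 0.220 and no call without any 1 of the WT libraries or without SRSF1KO 1. The call also ended with DESeq2 size factors in the edgeR fit (adjusted p = 0.0515).

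The 4 other H2B genes with at least 5 CPM had positive log2 fold changes and did not pass the edgeR threshold. Hist3h2ba, which overlaps the locus Gm51864, had 31.6, 31.2 and 24.9 CPM in WT and 68.1 and 48.4 CPM in SRSF1KO (log2 fold change 0.99 ± 0.20, edgeR adjusted p = 0.118, DESeq2 adjusted p = 0.000512). Hist1h2bc had 10.7, 15.2 and 12.9 CPM against 36.2 and 30.2 CPM (1.36 ± 0.23, edgeR adjusted p = 0.0720, limma-voom adjusted p = 0.0493). Hist1h2be, whose annotated span of 37455 bases overlaps the locus Gm33387, had 4.65, 3.74 and 1.40 CPM against 10.4 and 14.8 CPM (1.95 ± 0.51, edgeR adjusted p = 0.161, DESeq2 adjusted p = 0.00847). All 3 genes had non-overlapping groups. Hist1h2bg, at 7.29, 6.15 and 10.98 CPM against 5.66 and 13.3 CPM, overlapped. Over the 14 tested H2B genes the median was 0.06, but it was 1.36 over the 5 with at least 5 CPM and -0.67 over the other 9. Hist1h2be was among the 5 only through its SRSF1KO libraries (WT mean 3.26 CPM).

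The most negative log2 fold changes included that of the H2B gene Hist1h2bj, at 4.17, 5.17 and 4.23 CPM in WT and 2.33 and 2.098 CPM in SRSF1KO. Both SRSF1KO libraries were below every WT library, and the difference did not pass the test (log2 fold change -1.03 ± 0.43, edgeR adjusted p = 0.336). Hist1h2bl had 20, 13 and 42 counts in WT and 0 and 13 in SRSF1KO (-1.84 ± 1.68). The H3 gene Hist1h3a had 2.09, 2.61 and 6.26 CPM against 1.33 and 2.35 CPM (-0.99 ± 0.65), with overlapping groups.

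H2A genes had a median of 0.47 over 12 tested members, 9 of them positive. Hist3h2a, the neighbour of Hist3h2ba on chromosome 11, overlapped between groups at 35.3, 29.4 and 23.7 CPM in WT and 30.3 and 47.0 CPM in SRSF1KO (0.39 ± 0.25, edgeR adjusted p = 0.549). Its span overlaps Trim17, so reads of these genes may not be separable. Hist1h2ac had 6.71, 5.30 and 11.1 CPM in WT and 16.3 and 13.1 CPM in SRSF1KO, without overlap (0.93 ± 0.37, edgeR adjusted p = 0.315). Hist1h2ae had 7.18 to 8.24 CPM in WT and 10.1 and 9.48 CPM in SRSF1KO, also without overlap (0.36 ± 0.28, edgeR adjusted p = 0.636).

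H4 genes had a median of 0.20 over 11 tested members, with 7 positive. Hist1h4d had 16.7, 17.7 and 17.0 CPM in WT and 33.9 and 32.0 CPM in SRSF1KO, with close agreement within both groups (log2 fold change 0.95 ± 0.18, edgeR adjusted p = 0.0975, DESeq2 adjusted p = 0.000321). Hist1h4i had 10.9, 18.1 and 13.3 CPM against 32.7 and 21.3 CPM (0.94 ± 0.30, edgeR adjusted p = 0.230, DESeq2 adjusted p = 0.0473). H3 genes had a median of 0.55 over 10 tested members, with 9 positive and 1 negative. Among them Hist1h3i, at 8.34, 17.9 and 11.8 CPM against 19.8 and 16.1 CPM, overlapped, whereas Hist1h3e (7.26 to 8.70 against 15.0 and 8.98 CPM) and Hist1h3f (5.95 to 8.50 against 9.10 and 10.2 CPM) did not. Hist2h3c2 had the highest log2 fold change of all members, 2.08 ± 1.67, but its counts were 2, 33 and 2 in WT and 100 and 3 in SRSF1KO, and without SRSF1KO 1 the log2 fold change was -1.96.

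Per kilobase of annotated span, the mean levels of Hist3h2ba, Hist3h2a, Hist1h4d and Hist1h4i were 88.4, 65.2, 58.4 and 47.8 CPM, compared with 67.5 for Hist1h1c and 24.1 for H1f0. Spans include any introns and were taken from RefSeq, so they only approximate transcript length. For 8 replication-dependent core members RefSeq gives a span over 700 bases, longer than is typical of a stem-loop mRNA of this class. Of these, 5 had at least 5 CPM (Hist2h2be, Hist1h2bc, Hist1h3e, Hist1h3f and Hist1h2be), and in all 5 the groups did not overlap and SRSF1KO was higher. Of the 8 members at that level with shorter spans, 5 did so, against 16.4% of all genes at that level. Hist1h2be reached that level only through SRSF1KO (WT mean 3.26 CPM). The median log2 fold change was 0.97 over the 6 tested long-span genes and 0.29 over the 40 tested short-span genes, and 1 tested member had no coordinates. Neither the counts nor the medians of long-span and short-span genes were tested against each other.

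Promoter windows are shown for 3 core genes of the chromosome 13 cluster: Hist1h2be (chr13:23585971-23586220, minus strand, 1 of 2 annotated starts) and Hist1h4d (chr13:23581318-23581567, plus strand) stood higher in SRSF1KO, and Hist1h2bj (chr13:22042948-22043197, plus strand) lower. Capitals mark the same 4 motifs.
Hist1h2be: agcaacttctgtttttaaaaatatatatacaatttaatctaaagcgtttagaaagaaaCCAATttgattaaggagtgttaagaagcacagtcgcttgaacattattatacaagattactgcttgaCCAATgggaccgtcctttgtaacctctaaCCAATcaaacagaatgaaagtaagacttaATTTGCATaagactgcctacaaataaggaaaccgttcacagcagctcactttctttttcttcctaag
Hist1h4d: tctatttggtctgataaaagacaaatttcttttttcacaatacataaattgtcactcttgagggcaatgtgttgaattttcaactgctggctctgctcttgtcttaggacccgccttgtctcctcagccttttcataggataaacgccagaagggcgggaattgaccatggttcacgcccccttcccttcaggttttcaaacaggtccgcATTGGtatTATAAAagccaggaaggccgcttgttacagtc
Hist1h2bj: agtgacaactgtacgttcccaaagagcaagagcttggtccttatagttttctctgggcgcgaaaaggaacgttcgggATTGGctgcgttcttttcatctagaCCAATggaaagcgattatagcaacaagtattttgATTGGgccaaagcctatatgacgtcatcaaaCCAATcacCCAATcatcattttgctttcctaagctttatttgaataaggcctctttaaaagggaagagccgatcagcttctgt
The Hist1h2be window shown held an octamer beginning 67 bases before the annotated start, but the window of its other start held 3 CCAAT matches and no octamer. The Hist1h2bj window had 5 CCAAT matches and no octamer. Members with an octamer stood on both sides of 0, such as Hist1h2ac (0.93) and Hist1h2bk (-0.96). The octamer occurred in 7 of 17 H2B windows and 7 of 17 H2A windows, against 1.60% of all windows, and in 0 of 10 H3 and 0 of 12 H4 windows. Many H2A and H2B genes are divergent neighbours, so a match can lie in both windows. The 17 H2B windows include both starts of Hist1h2be, and no window was matched for Hist2h2be or Hist1h2bc. CCAAT occurred in 17 of 17 H2B and 17 of 17 H2A windows, 8 of 10 H3 and 3 of 12 H4 windows, against 33.8% of all. TATAAA occurred in 8 of 17 H2B, 7 of 17 H2A, 4 of 10 H3 and 6 of 12 H4 windows, against 12.4% of all.

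**Figure D2:**
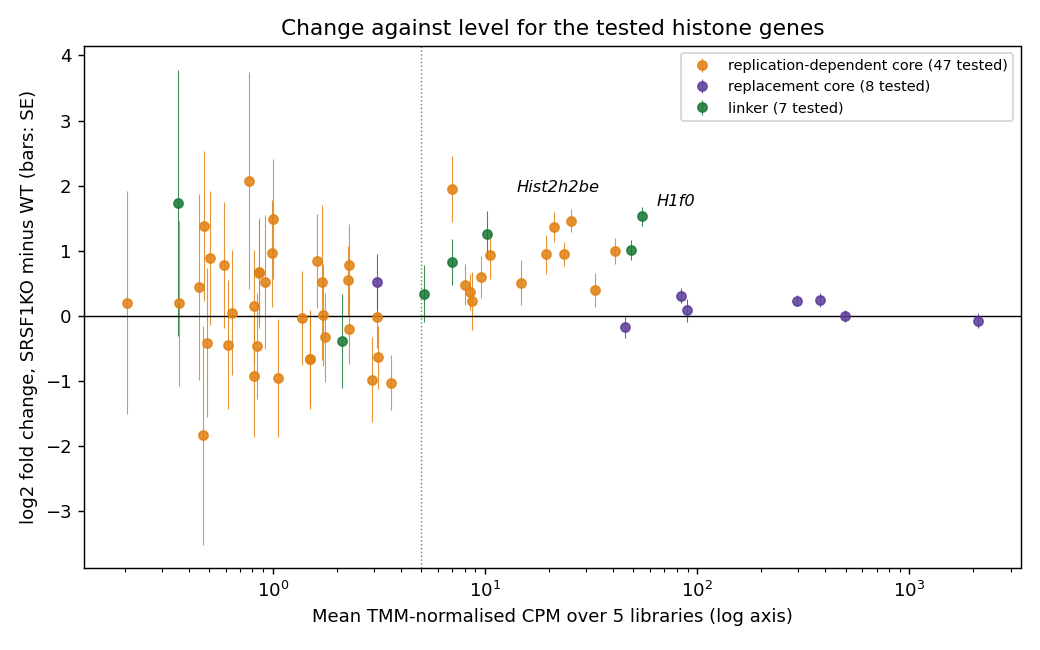
Log2 fold change (SRSF1KO minus WT, bars SE) against mean TMM-normalised CPM on a log axis for the 62 tested histone genes, coloured by class, with a dotted line at 5 CPM. Right of the line, all 13 replication-dependent core genes lie above 0, and the named genes H1f0 and Hist2h2be are the 2 called by edgeR. Hist1h2be lies right of the line although its WT mean was 3.26 CPM.

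Of the members with coordinates, 53 lie in the Hist1 cluster on chromosome 13, which falls into 3 blocks. The first (21715711 to 21837530) had 14 tested members, 7 positive and 7 negative, with a median of 0.24. The second (22035122 to 22043658) had 4 tested members, 1 positive (Hist1h4i) and 3 negative, with a median of -0.58. The third (23531044 to 23934913), which holds Hist1h1c, Hist1h1e, Hist1h2be, Hist1h2bc and Hist1h4d, had 26 tested members, 21 positive and 5 negative, with a median of 0.46. Whether the blocks differ was not tested. Of 10 Hist2 genes on chromosome 3, 6 had 0 counts in all libraries.

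**Figure D3:**
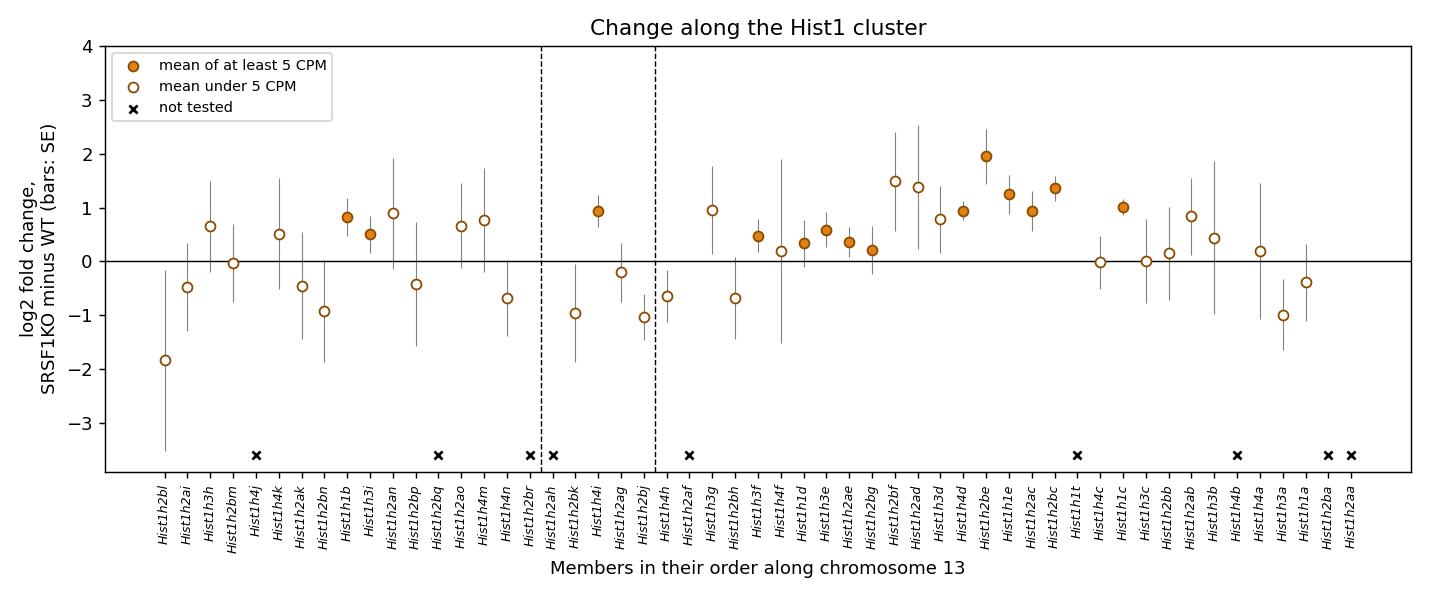
Log2 fold change (SRSF1KO minus WT, bars SE) of the Hist1 genes in their order along chromosome 13, with dashed lines between the 3 blocks, filled points for a mean of at least 5 CPM, open points for less and crosses for genes not tested. Every filled point lies above 0, and the negative points are all open. The mean is over all libraries, and Hist1h2be and Hist1h1d are filled although their WT means were 3.26 and 4.63 CPM.

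In replacement core genes the median log2 fold change was 0.15 over 8 tested members (5 positive, 3 negative), and edgeR, DESeq2 and limma-voom each called 0 of them, with 2 at unadjusted p under 0.05. Their summed level was 3466, 3832 and 3165 CPM in WT and 3425 and 3583 CPM in SRSF1KO, with overlapping groups and a ratio of 1.005. H3f3b, 1 of 2 genes for H3.3, was the most abundant histone gene at 2186, 2407 and 1853 CPM in WT and 1919 and 2156 CPM in SRSF1KO (-0.08 ± 0.12, edgeR adjusted p = 0.858). H3f3a, the other H3.3 gene, stood at 312, 377 and 367 CPM against 434 and 397 CPM (0.24 ± 0.11, edgeR adjusted p = 0.381), without overlap. H2afz, which encodes H2A.Z, was at 492, 528 and 471 CPM against 497 and 491 CPM (-0.01 ± 0.09, edgeR adjusted p = 0.988).

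H2afv, the second H2A.Z gene, stood slightly above WT in both SRSF1KO libraries, at 273, 285 and 270 CPM against 326 and 321 CPM (0.23 ± 0.09, edgeR adjusted p = 0.294). H2afx, whose product is phosphorylated at DNA breaks and whose transcript can end in either a stem-loop or a poly(A) tail, did so too, at 72.2, 79.3 and 78.8 CPM against 99.05 and 91.0 CPM (0.31 ± 0.12, edgeR adjusted p = 0.299). H2afy, the macroH2A1 gene, overlapped at 77.4 to 99.99 CPM and 106 and 77.8 CPM. H2afj, a variant H2A gene, was lower without overlap, at 45.1, 54.5 and 44.7 CPM against 40.3 and 44.4 CPM (-0.18 ± 0.16, edgeR adjusted p = 0.696). H3f3c was at 2.32 to 2.89 CPM in WT and 3.66 and 3.83 CPM in SRSF1KO. H2afy2 and the testis genes H2afb1, H2afb2 and H2afb3 had 0 counts in all 5 libraries, which allows up to 3 counts each.

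Replacement genes held most histone counts in every library. Their share was 92.2%, 92.3% and 91.4% in WT and 85.5% and 87.0% in SRSF1KO. The replication-dependent core share was 5.61%, 5.51% and 6.11% in WT and 9.42% and 8.42% in SRSF1KO, and the linker share was 2.16%, 2.17% and 2.47% against 5.04% and 4.53%. For all 3 shares the groups did not overlap. Histone counts as a whole held 0.383%, 0.414% and 0.342% of the library in WT and 0.401% and 0.408% in SRSF1KO, so the total overlapped. No test was run on sums over chosen members.

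**Figure D4:**
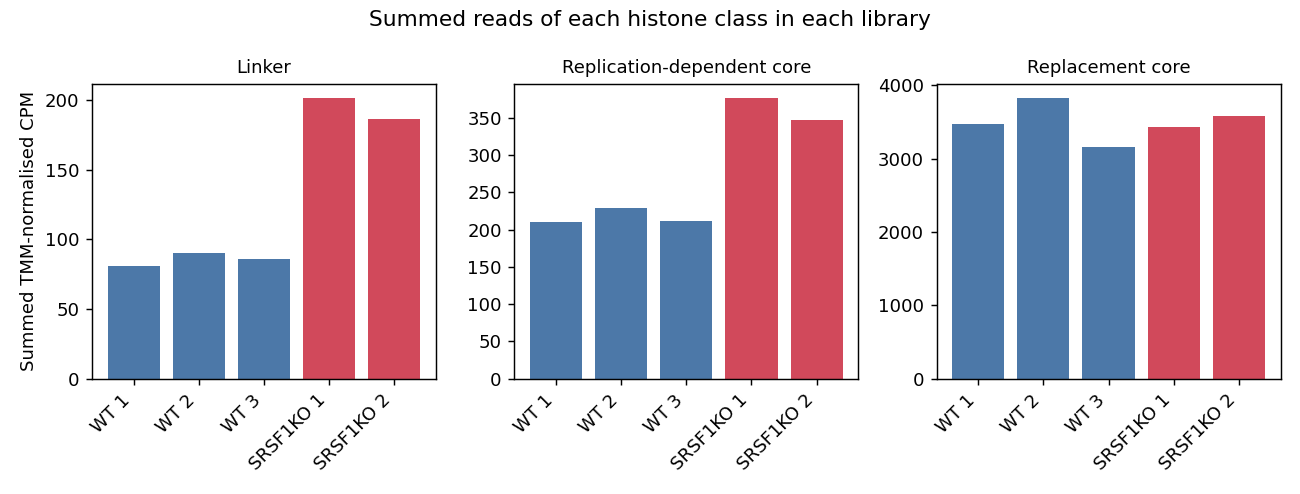
Summed TMM-normalised CPM of linker, replication-dependent core and replacement core histone genes, 1 bar per library (blue WT, red SRSF1KO) and a separate linear axis from 0 in each panel. Linker sums are 81.2 to 90.1 in WT and 187 and 202 in SRSF1KO, whereas replacement sums overlap.

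Genes that act on histone mRNAs or histones were described from 5 lists, in which edgeR called 0 members. Their counts are to be read against all genes, of which 5.9% were higher and 8.45% lower at unadjusted p under 0.05. Of 18 genes for stem-loop processing of histone pre-mRNA (median 0.09), 1 was higher and 2 lower at unadjusted p under 0.05, DESeq2 called Srrt higher, and limma-voom called 0. Slbp, which binds the stem-loop, had 154, 145 and 160 CPM in WT and 113 and 134 CPM in SRSF1KO (-0.31 ± 0.12, edgeR adjusted p = 0.293), without overlap. Srrt, which links the cap-binding complex to processing, had a log2 fold change of 0.40 ± 0.12 (edgeR adjusted p = 0.195), and Cpsf3, the endonuclease that cuts histone pre-mRNA, one of -0.31 ± 0.11 (edgeR adjusted p = 0.278).

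S phase genes had a median of -0.23 over 27 tested members, 9 positive and 18 negative. At unadjusted p under 0.05, 1 was higher and 9 lower, and the groups did not overlap in 3 higher and 14 lower genes, against 15.2% and 17.8% of all genes. Ung, the uracil-DNA glycosylase, had 53.8, 46.5 and 47.9 CPM in WT and 13.6 and 22.0 CPM in SRSF1KO (-1.47 ± 0.24, edgeR adjusted p = 0.0660), and DESeq2 called it lower. Cdc6, which loads the replicative helicase, had a log2 fold change of -0.78 ± 0.20 (edgeR adjusted p = 0.153), and Ccna2, which encodes cyclin A2 and is active in S phase and G2, one of 0.55 ± 0.13 (edgeR adjusted p = 0.139). DESeq2 called Ccna2 higher and Cdc6 lower, and limma-voom called 1 member of the list lower. The S phase list and the replication-dependent core genes thus had medians of opposite sign, and the proliferation markers a positive one (0.46); a link between them was not tested.

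Histone chaperone and exchange genes had a median of -0.12 over 26 tested members, 9 positive and 17 negative, with 1 higher and 4 lower at unadjusted p under 0.05. Set, a histone chaperone, was at 429, 376 and 360 CPM in WT and 225 and 269 CPM in SRSF1KO (-0.65 ± 0.12, edgeR adjusted p = 0.0964), and only DESeq2 called it lower. SR export adaptors and the TREX complex, which carry mRNA out of the nucleus, had a median of 0.06 over 13 members, with 1 higher and 0 lower at unadjusted p under 0.05. Of these Thoc2 was called higher by DESeq2 (0.41 ± 0.10, edgeR adjusted p = 0.139), and Srsf3 and Srsf7, SR proteins known to bind histone mRNA export elements, each had a log2 fold change of -0.04. The 17 tested of 19 genes for decay of histone mRNA had a median of -0.08, with 2 higher and 2 lower at unadjusted p under 0.05 and 0 called by DESeq2 or limma-voom. Xrn1, the 5′ exonuclease, had a log2 fold change of 0.41 ± 0.13 (edgeR adjusted p = 0.232).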

How the data were processed

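RNA-seq libraries of sorted mouse thymocytes were analysed; the 4 CLIP-seq samples of the series were not analysed here. The deposited table holds raw read counts per Ensembl gene, not normalised, for 3 WT and 2 SRSF1KO libraries. Per the submitters' processing notes, which state no roles, the tools were HTSeq 0.6.1, Bowtie2 2.1.0, Trim Galore, cutadapt 1.17, FastQC 0.11.5, HOMER 4.9.1 and DESeq2 1.20.0, with mm10. The aligner, annotation release, strand setting and handling of reads shared by near-identical copies were not given in the sources used here. Values of single core histone genes, which differ little in sequence, are therefore uncertain. IDs were matched to symbols (53620 of 53715), and coordinates and promoter sequences came from RefSeq, GRCm38.p6.

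Members, classes and the gene lists were chosen with earlier results of these data known. Genes were tested by edgeR (version 4.0.16, R 4.3.3) with its quasi-likelihood method, TMM scaling, filterByExpr and group as the only term, which left 17351 genes, with Benjamini-Hochberg adjustment over all of them and a threshold of 0.05. The common biological coefficient of variation was 0.494. The alternatives were other scalings and filters, DESeq2 1.42.0, limma 3.58.1 (voom), a replicate block, and fits without 1 library. Genes named by rule were Srsf1, called members, the 6 most abundant per class, the 3 largest changes in each direction, and in each gene list the called members or those with the smallest p, up to 3. Others are named to account for further members with reads. One listed marker gene is not reported here. The test was checked on simulated data. There edgeR recovered 61% of 100 2-fold changes and 95% of 100 4-fold changes, all placed in genes at 5 CPM or more. It made 6 false calls among 17201 genes tested. Recovery was thus not measured at the level of the 37 tested members under 5 CPM. The simulated libraries varied independently, whereas WT 1 and WT 3 may share a donor.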

Additional observations from a re-analysis of the deposited data

How the results depend on the processing

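The 2 members called higher became 1 with DESeq2 size factors (Hist2h2be was lost), 7 without a filter, 7 with a mean of at least 5 CPM, 9 with DESeq2, 4 with limma-voom, and 0 (8 at unadjusted p under 0.05) with the replicate number as a block. With a sex-pattern term, added after the data were seen, it was 0 (12 at unadjusted p under 0.05). Leaving out 1 library gave 0 to 2 members called higher, 0 without any 1 of the WT libraries or without SRSF1KO 1 (8 to 12 at unadjusted p under 0.05), and 2 without SRSF1KO 2. Without any 1 of the WT libraries edgeR called 0 genes in all, and without SRSF1KO 1 it called 11, none of them histone genes. A lone SRSF1KO library was assumed to vary like the other group. Calls lower were 0 in every setting, with 0 or 1 at unadjusted p under 0.05. Labels do not pair the samples. Same-numbered libraries had deviations correlated at -0.046 and -0.013. With only 2 SRSF1KO libraries their deviations mirror each other, so these values cannot decide whether libraries were paired. The linker median was 0.68 without a filter and the replication-dependent core median 0.95 at 5 CPM, and leaving out 1 library moved the replacement median between 0.091 and 0.28. It also put the linker median at 0.71 to 0.99 and the replication-dependent core median at 0.33 to 0.43. Of 304 alternative values for 24 named histone genes, 259 kept direction and side of the threshold, 19 gained a call, 13 lost one and 13 reversed. The lost calls were those of H1f0, in 6 of 13 settings, and of Hist2h2be, in 7 of 13. The other named genes were not called in the main fit, so only a gained call could move them across the threshold. H2afz was 0.010 with DESeq2 size factors and with DESeq2, 0.014 with upper-quartile scaling and 0.012 at 5 CPM, and H2afy was -0.013 with the block. Leaving out libraries gave -0.033 to 0.037 for H2afz, -0.16 to 0.31 for H2afy, -0.16 to 0.013 for H3f3b, -0.19 to 0.74 for Hist1h1d, -1.96 to 3.05 for Hist2h3c2 and -1.62 to 0.28 for Hist1h1a. Without a change of sign, they gave 0.71 to 1.66 for Hist1h1e, 0.54 to 1.09 for Hist1h1b, 0.60 to 1.24 for Hist1h4i, 0.062 to 0.68 for Hist3h2a and -1.43 to -0.34 for Hist1h3a. Hist1h2bl was -0.85 without SRSF1KO 1, and without SRSF1KO 2 it had 0 counts in SRSF1KO. The causes were not tested. Class shares do not depend on scaling. The length alternative for shares was not run, since no length table was used here. SE of log2 fold changes were 0.43 to 2.05 in tested members below 5 CPM and 0.086 to 0.51 above.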

Other observations

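After their values were seen, 2 genes of the Hist2 cluster on chromosome 3 were singled out because their counts went with the Xist and Ddx3y pattern of the libraries and not with genotype. Hist2h4 had 83, 9 and 75 counts in WT and 10 and 139 in SRSF1KO, low in the male-pattern libraries WT 2 and SRSF1KO 1. Hist2h3c2 had 2, 33 and 2 counts in WT and 100 and 3 in SRSF1KO, high in those same libraries. H2afy also split by this pattern, at 99.99 and 106 CPM in WT 2 and SRSF1KO 1 and 77.4 to 84.4 CPM elsewhere. Hist1h1d did too, at 5.66 and 7.66 CPM against 3.57 to 4.67 CPM. Hist1h3i was at 17.9 and 19.8 CPM in WT 2 and SRSF1KO 1 and at 8.34 to 16.1 CPM elsewhere. Hist1h1a was at 3.10 and 2.80 CPM there and at 0.755 to 2.34 CPM elsewhere. Hist1h2bg was lower there, at 6.15 and 5.66 CPM against 7.29 to 13.3 CPM. Further members split so as well. Such a split is therefore not particular to the 2 Hist2 genes. The share of all genes or of members that split so was not computed, and none of these differences was tested.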
